A study of Mus musculus with 18 samples.

Results

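The expression of 10 genes for glycoproteins of the extracellular matrix was followed over time in podoplanin-bearing stromal cells of the mouse salivary gland: fibronectin (Fn1), the tenascins Tnc and Tnxb, the thrombospondins Thbs1 and Thbs2, the fibre proteins fibrillin 1 (Fbn1) and elastin (Eln), the matricellular proteins Sparc and periostin (Postn), and cochlin (Coch). The 10 genes were taken by name from the 55401 gene IDs in each count file, and all 10 passed the filter on low counts among 27525 tested genes. Matrix glycoproteins of this kind are secreted by fibroblasts and bind collagen, growth factors or integrins, the receptors through which cells hold and sense the matrix. Some of them, such as Fn1, Fbn1, Eln and Tnxb, belong to standing connective tissue. Others, such as Thbs1, Tnc and Postn, are known to appear in tissue under repair or inflammation, and are called matricellular because they signal to cells more than they carry load.

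The cells came from Balb/c mice of 8 to 12 weeks, each library labelled with its own subject, and were sorted by flow cytometry for gp38, the product of Pdpn. The 3 control mice were uninfected (hour 0, replicates 10 to 12). The other mice had the submandibular duct cannulated with 100000000 to 1000000000 plaque-forming units of a replication-defective adenovirus 5 (Ad5), a procedure used to induce tertiary lymphoid structures in the gland. Their glands were taken at hour 3 (replicates 4 to 6), day 1 (replicates 13 to 15), day 2 (replicates 16 to 18), day 8 (replicates 1 to 3) or day 23 (replicates 7 to 9) after cannulation. Each group has 3 libraries, made from 10 ng of RNA. The samples hold no group that was cannulated without virus, so the procedure and the virus are compared together with the uninfected gland. All groups share the strain and the sort.

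Library depth ran from 4398234 to 15234431 counts. The libraries formed 2 sets by replicate number that the labels do not name. Replicates 10 to 18 (hour 0, day 1, day 2) carried 0.550 to 3.41 counts per kb in 1781 sensory receptor genes, taken as silent here and scaled to 10000000 counts, against 0.0197 to 0.0607 in replicates 1 to 9 (hour 3, day 8, day 23). In comparisons of hour 3, day 8 or day 23 with hour 0, time and set therefore cannot be told apart. Day 1, day 2 and hour 0 can be compared within a set, as can hour 3, day 8 and day 23. Within replicates 10 to 18 the background still differed by group without overlap. It was 1.19 to 1.88 at hour 0, 0.550 to 1.17 at day 1 and 3.17 to 3.41 at day 2. This background made up at most 19.7% of the counts of Coch and 4.48% of those of Tnc, and at most 1.64% for the other 8 genes. Levels are CPM, counts as a share of the library size, with the size adjusted by trimmed means of M values (TMM). The scaling factors were 0.516 to 0.547 at hour 3 and 1.14 to 1.24 at hour 0, so at hour 3 the choice of scaling moves every fold change. With plain library totals the log2 fold changes of single genes at hour 3 against hour 0 moved by a median of -1.15. The later groups moved less, day 8 by -0.39, day 23 by -0.44, day 2 by 0.37 and day 1 by 0.09. One day 1 library, replicate 14, stood apart from replicates 13 and 15 in several of the 10 genes, and results that rest on it are given with and without it.

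All 10 genes changed over the 6 groups in edgeR's quasi-likelihood test (adjusted p under 0.05 over all genes tested, the call used throughout), where 83.9% of all genes were called. In the comparisons that stay within a set, day 1 against hour 0 gave 3 genes higher (Tnc, Thbs1, Coch) and 4 lower (Fn1, Thbs2, Fbn1, Tnxb), where 22.5% of all genes were called, 9.67% higher and 12.8% lower. The median log2 difference of the 10 was 0.04, against -0.41 for all genes. Day 2 against hour 0 gave 3 higher (Tnc, Thbs1, Postn) and 4 lower (Tnxb, Eln, Fbn1, Coch) against 14.8% of all genes, 5.12% higher and 9.63% lower, with medians of -0.21 and 0.29. From day 1 to day 2, 4 were higher (Postn, Thbs2, Fn1, Fbn1) and 3 lower (Coch, Eln, Tnxb) (23.2% of all genes called, 12.0% higher and 11.2% lower). With library totals these became 3 higher and 2 lower at day 2, without Fbn1 and Coch, and 5 higher and 2 lower from day 1 to day 2. The medians of the 10 were then 0.16 at day 2 and 0.58 from day 1 to day 2, against 0.66 and 1.05 for all genes. The shares of all genes called in this paragraph are those under TMM. From day 8 to day 23, 1 was higher (Tnxb) and 2 lower (Tnc, Thbs1) (5.32% called, 2.25% higher and 3.08% lower). From hour 3 to day 8, 8 were lower and the other 2 were not called (30.7% called, 16.5% higher and 14.1% lower), and from hour 3 to day 23, 7 were lower and 1 was higher (30.0% called, 15.7% higher and 14.3% lower). With library totals these last counts became 3 lower and 2 higher at day 8, and 2 lower and 1 higher at day 23. The medians of the 10 against hour 3 were then -0.42 at day 8 and -0.22 at day 23, against 0.47 and 0.21 for all genes. Across the sets, hour 3 against hour 0 gave 8 higher and 1 lower under TMM and 3 higher and 1 lower under library totals (60.0% of all genes called under TMM, 16.9% higher and 43.1% lower). The medians there were 1.10 for the 10 genes and -1.41 for all genes under TMM, and -0.07 and -2.54 under library totals. The medians of all genes depend on the filter on low counts. With a filter of 5 CPM in 3 libraries they were -0.04 at day 1, 0.0048 at day 2 and -0.23 at hour 3 against hour 0 under TMM. Day 8 against hour 0 gave 4 higher (Thbs2, Tnc, Postn, Thbs1) and 3 lower (Coch, Tnxb, Eln) (43.9% called, 11.2% higher and 32.7% lower), and day 23 against hour 0 gave 1 higher (Thbs2) and 1 lower (Coch) (34.0% called, 8.51% higher and 25.4% lower). The comparisons with hour 0 share the same 3 control libraries. In sorted bulk RNA, fewer cells of a type and less RNA per cell cannot be told apart.

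**Figure D1:**
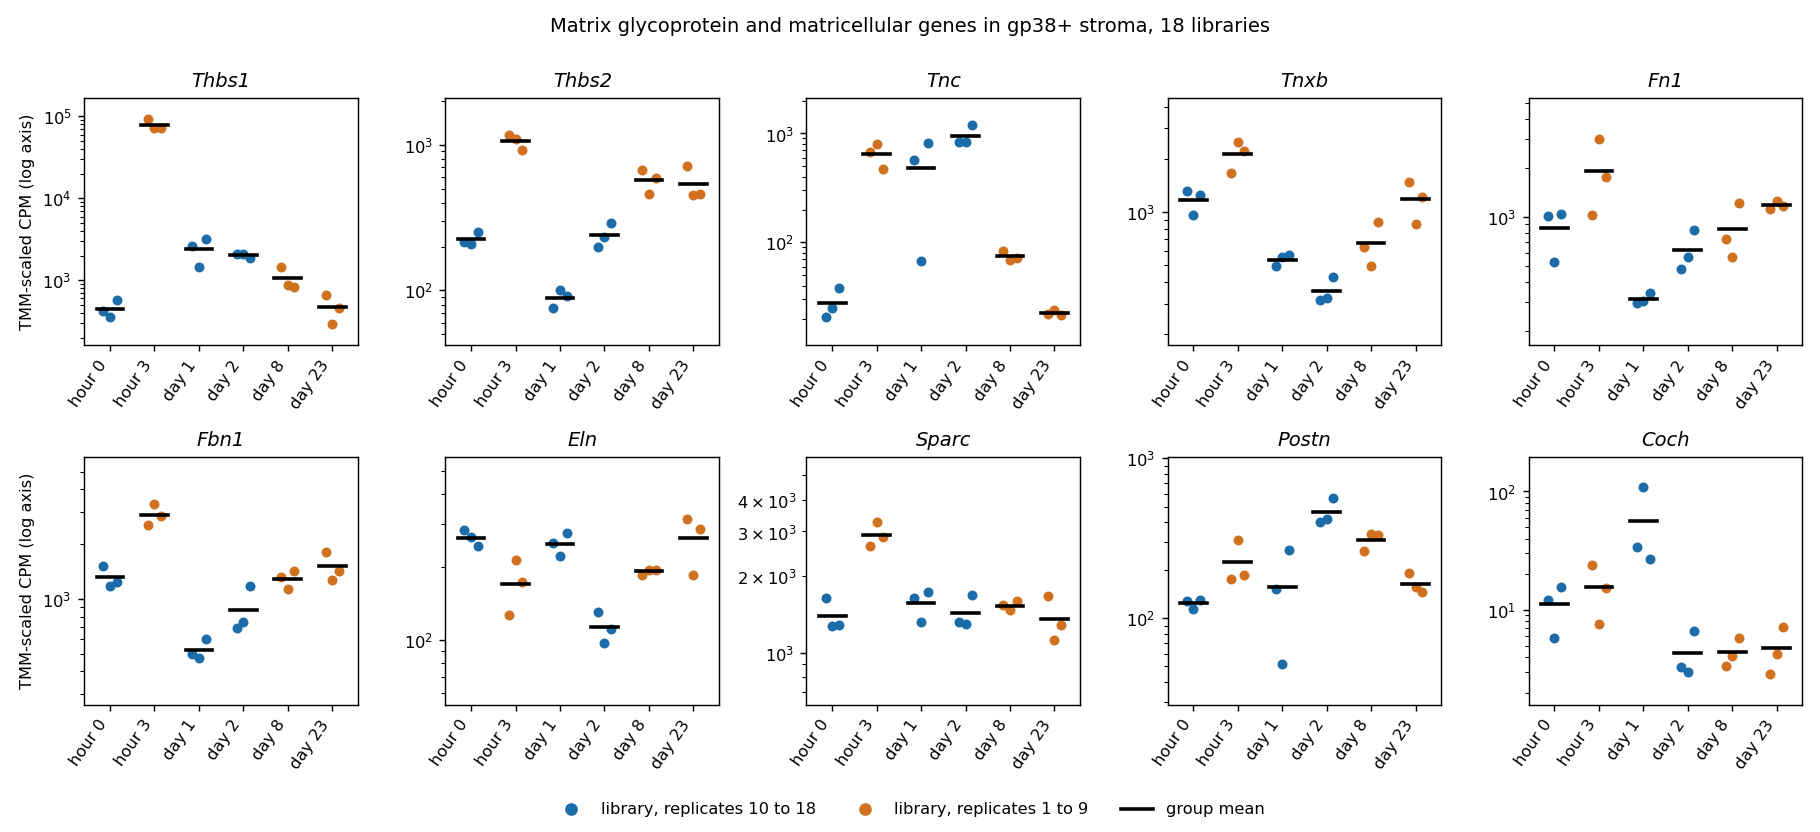
TMM-scaled CPM (log axis, 1 panel per gene) of the 10 genes in each of the 18 libraries by time group. Points are libraries, coloured by the 2 sets of replicate numbers, and bars are group means. Thbs1 peaks at hour 3 and Tnc at day 2, Thbs2 and Fbn1 are lowest at day 1, and 1 day 1 library lies low in Tnc and Postn and high in Coch. The hour 3 levels depend on the scaling: with library totals the hour 3 differences of Sparc, Postn, Fbn1 and Tnxb from hour 0 are slightly negative.

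The thrombospondins are secreted glycoproteins that bind CD47, CD36 and integrins. Thbs1 is known for activating latent TGF-beta and Thbs2 for its part in collagen fibril assembly and in holding back vessel growth. Thbs1 stood at 419.7, 355 and 569 CPM in the 3 hour 0 libraries and at 93954, 71153 and 72137 CPM at hour 3. It was 2614, 1457 and 3186 CPM at day 1, 2094, 2108 and 1888 at day 2, 1465, 866 and 830.0 at day 8 and 653, 292 and 459.7 at day 23. The hour 3 libraries lay far above all others, the day 1, day 2 and day 8 libraries lay above hour 0 with no overlap, and the day 23 libraries overlapped hour 0. At hour 3 Thbs1 took 4.18% ± 0.58 (SD, n = 3) of all counts and ranked 1 to 3 among the 55401 gene IDs by count, against ranks of 127 to 212 at hour 0. The log2 difference from hour 0 was 7.46 ± 0.37 (SE) (adjusted p = 2.18e-15, edgeR), a 177-fold difference, and 6.29 with library totals. Within a set, Thbs1 rose by 2.43 ± 0.29 (SE) at day 1 (adjusted p = 1.38e-07) and by 2.18 ± 0.29 (SE) at day 2 (adjusted p = 1.44e-06). Without replicate 14 the day 1 difference was 2.70. It fell by 6.23 on the log2 scale from hour 3 to day 8 (-5.42 with library totals) and fell by 1.17 from day 8 to day 23 (adjusted p = 0.0119). The last call was lost in limma-voom (adjusted p = 0.0659), with only replicates 1 to 9 (adjusted p = 0.0505) or only the 2 groups (adjusted p = 0.076), and without day 8 replicate 1 (-0.86, adjusted p = 0.0791).

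Thbs2 followed another course. Its level was 216, 208 and 253 CPM at hour 0, 1171, 1100.5 and 914 at hour 3 and 75.9, 101 and 90.8 at day 1. It was 197, 232 and 289 CPM at day 2, 667, 456 and 590.3 at day 8 and 717, 449 and 456 at day 23. The day 1 libraries lay below all others, the day 2 libraries overlapped hour 0, and the day 8 and day 23 libraries lay above hour 0 and overlapped each other. Thbs2 fell at day 1 (-1.34 ± 0.20 (SE), adjusted p = 5.26e-06) while Thbs1 rose in the same 3 libraries. It rose again from day 1 to day 2 by 1.42 (adjusted p = 1.03e-05) and differed from hour 0 at day 2 by 0.09 ± 0.20 (SE), with no call (adjusted p = 0.848). Against hour 0 it was 2.53-fold higher at day 8 and 2.40-fold higher at day 23 (adjusted p = 1.49e-05 and 7.97e-05), the only one of the 10 genes called higher at day 23. Those differences were 0.95 and 0.83 with library totals, and both lie across the sets. At hour 3 the difference was 2.24, and 1.06 with library totals, both called.

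The ratio of Thbs1 to Thbs2 counts per kb of exon within a library does not depend on the scaling. Its median was 2.24 at hour 0 (range 1.97 to 2.60) and 91.0 at hour 3 (74.6 to 92.5). At day 1 it was 39.7 (16.6 to 40.5, the lowest in replicate 14). It was 10.5 at day 2 (7.54 to 12.2), 2.19 at day 8 (1.62 to 2.53) and 1.05 at day 23 (0.750 to 1.16). The ratio at day 8 overlapped that of hour 0, whereas at day 23 every library lay below every hour 0 library and the members of the pair stood at similar levels per length. The ratio for hour 3, day 8 and day 23 against hour 0 is still compared across the sets.

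Tenascin C, encoded by Tnc, is a large hexameric glycoprotein with little presence in most adult connective tissue and is known to be induced at sites of injury. Tenascin X, encoded by Tnxb, is a standing component of adult connective tissue that associates with collagen fibrils. Tnc stood at 20.6, 24.8 and 37.8 CPM at hour 0, 669, 793 and 467 at hour 3 and 572, 67.1 and 818 at day 1. It reached 835, 829 and 1183 CPM at day 2, then stood at 82.9, 69.5 and 71.3 at day 8 and 22.1, 23.8 and 21.5 at day 23. Every library of hour 3, day 1, day 2 and day 8 lay above every hour 0 library, and day 23 overlapped hour 0. Replicate 14, listed between replicates 13 and 15, was 10.4-fold below the mean of the other 2 libraries of its group, yet still above hour 0. Tnc rose by 4.13 ± 0.47 (SE) at day 1 (adjusted p = 4.44e-08, edgeR) and by 5.09 ± 0.49 (SE) at day 2 (adjusted p = 4.57e-09), a 34.1-fold difference. Without replicate 14 the day 1 difference was 4.65 and without replicate 15 it was 3.52. From day 1 to day 2 the difference was 0.97 ± 0.41 (SE) and was not called (adjusted p = 0.0834), although the day 2 libraries all lay above those of day 1. It was 0.44 without replicate 14, still not called (adjusted p = 0.136), and 1.56 without replicate 15 (adjusted p = 0.0163). It was called in 5 of 27 alternative settings, among them library totals (1.26, adjusted p = 0.0263) and limma-voom (1.53, adjusted p = 0.0118). At hour 3 Tnc was 23.1-fold higher than at hour 0 (4.53, and 3.37 with library totals). At day 8 it was 2.68-fold higher than at hour 0 (1.42, adjusted p = 0.0107), a call lost in DESeq2 (adjusted p = 0.0536) and limma-voom (adjusted p = 0.211). It fell by 1.72 from day 8 to day 23 (adjusted p = 0.0173), a call that limma-voom did not make (adjusted p = 0.501).

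Tnxb moved the other way at day 1 and day 2. It stood at 1310.4, 965 and 1246 CPM at hour 0, 1669, 2497 and 2226 at hour 3 and 489.9, 550.1 and 566 at day 1. It was 313, 322 and 426 CPM at day 2, 630.2, 492 and 874 at day 8 and 1486, 859 and 1225 at day 23. The day 1, day 2 and day 8 libraries all lay below the hour 0 libraries, with day 2 the lowest, and the day 23 libraries overlapped hour 0. Tnxb fell by 1.13 at day 1 (SE 0.22, adjusted p = 0.000181) and fell by 1.73 at day 2 (SE 0.22, adjusted p = 6.79e-07). It was lower at day 8 than at hour 0 (-0.82, adjusted p = 0.00482) and higher at day 23 than at day 8 (0.84, adjusted p = 0.0186), where the libraries of the groups overlapped. The latter call was lost without day 8 replicate 1 (adjusted p = 0.0601), day 8 replicate 2 (adjusted p = 0.159) or day 23 replicate 7 (adjusted p = 0.0819), and with only the 2 groups (adjusted p = 0.0908). From day 1 to day 2 it differed by -0.60 (adjusted p = 0.0437), a call that held in 14 of 27 alternative settings. It was lost with library totals (-0.33, adjusted p = 0.282), DESeq2 (adjusted p = 0.179) and subtracted background (-0.48, adjusted p = 0.113). Leaving out replicate 14 also ended the call (adjusted p = 0.0513). The hour 3 difference was 0.86 under TMM and -0.31 under library totals, so its direction rests on the scaling. The ratio of Tnc to Tnxb per kb had a median of 0.0404 at hour 0 (0.0247 to 0.0477), 0.499 at hour 3 (0.330 to 0.630) and 1.83 at day 1 (0.192 to 2.27, the lowest in replicate 14). It was 4.19 at day 2 (4.05 to 4.36), 0.207 at day 8 (0.128 to 0.222) and 0.0276 at day 23 (0.0234 to 0.0436). Tnc thus stood above Tnxb per length in all 3 libraries of day 2 and in 2 of 3 of day 1, and below it in all other libraries.

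**Figure D2:**
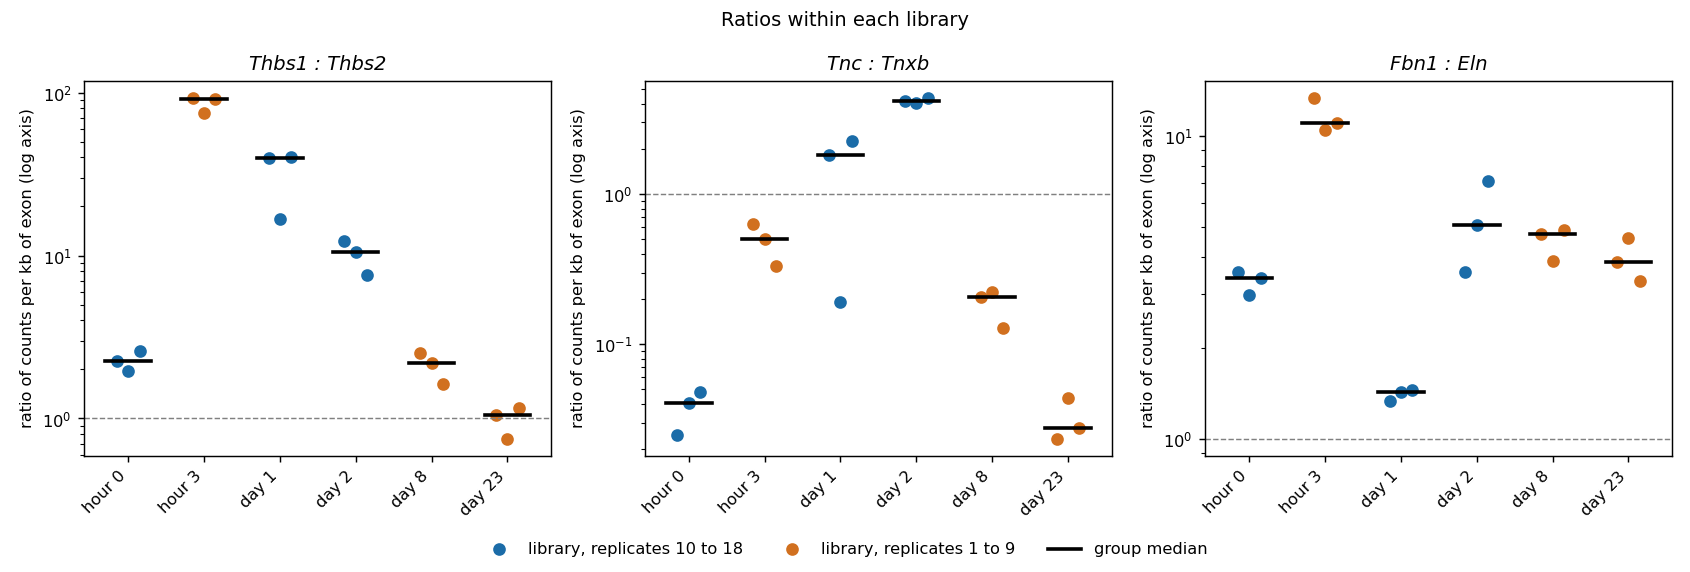
Ratio of counts per kb of exon of Thbs1 to Thbs2, Tnc to Tnxb and Fbn1 to Eln within each library (log axes), by time group. Points are libraries coloured by set, bars are group medians, and the dashed line marks a ratio of 1. The Thbs1 ratio has medians of 91.0 at hour 3 and 1.05 at day 23, the Tnc ratio is above 1 in 5 of the 6 libraries of day 1 and day 2 and in no other, and the Fbn1 ratio is highest at hour 3 and lowest at day 1.

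The stretches before the start sites of 4 members follow, for Tnc and Tnxb as the tenascin pair called in opposite directions at day 1 and day 2, for Thbs2, which was called lower at day 1 while Thbs1 was called higher, and for Postn, called higher at day 2 as Tnc was. Each is the 250 bases upstream of the start, 5′ to 3′ on the gene's own strand, from RefSeq on GRCm38.p6. Capitals mark matches to 6 motifs searched on both strands.
Tnc, chr4:64047016-64047265, minus strand: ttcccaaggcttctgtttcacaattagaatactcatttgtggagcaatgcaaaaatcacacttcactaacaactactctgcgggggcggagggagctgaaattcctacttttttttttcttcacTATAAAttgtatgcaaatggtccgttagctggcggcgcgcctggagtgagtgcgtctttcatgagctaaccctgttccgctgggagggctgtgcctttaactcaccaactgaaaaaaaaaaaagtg
Tnxb, chr17:34670285-34670534, plus strand: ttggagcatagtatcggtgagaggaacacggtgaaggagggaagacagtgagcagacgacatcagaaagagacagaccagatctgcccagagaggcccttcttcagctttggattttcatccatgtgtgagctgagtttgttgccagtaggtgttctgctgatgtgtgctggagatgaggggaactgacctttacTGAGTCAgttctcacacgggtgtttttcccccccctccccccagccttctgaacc
Thbs2, chr17:14694263-14694512, minus strand: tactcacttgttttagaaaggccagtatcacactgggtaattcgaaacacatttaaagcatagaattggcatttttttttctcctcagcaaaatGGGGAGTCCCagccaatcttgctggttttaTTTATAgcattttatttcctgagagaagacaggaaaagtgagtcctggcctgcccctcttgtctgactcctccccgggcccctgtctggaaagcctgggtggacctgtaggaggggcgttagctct
Postn, chr3:54360857-54361106, plus strand: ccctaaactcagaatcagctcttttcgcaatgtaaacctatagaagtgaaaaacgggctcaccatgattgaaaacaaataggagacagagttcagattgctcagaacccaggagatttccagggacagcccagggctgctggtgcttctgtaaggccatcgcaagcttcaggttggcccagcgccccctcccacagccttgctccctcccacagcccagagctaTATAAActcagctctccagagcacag
The motifs were AP-1 (TGANTCA), the TATA box (TATAAA), TEAD (GGAATG), a pair of interferon-response half-sites (GAAA, any 2 bases, GAAA), NF-kB and the SRF CArG box, the last pair by name. Positions count back from the start site. Tnc held a TATA box match at -126 to -121, Postn at -26 to -21, and Thbs2 on the other strand at -126 to -121. Thbs2 also held an NF-kB match at -156 to -147, and Tnxb an AP-1 match at -55 to -49. Among 32536 promoters of the same length, 12.3% held the TATA box letters, 7.28% an NF-kB match and 6.73% an AP-1 match. TEAD letters were in 12.6%, the half-site pair in 2.98% and the CArG box in 1.48%. RefSeq entries matched 7 of the 10 genes. A match is a description of letters and not a binding site.

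Fibronectin (Fn1) is the integrin-binding glycoprotein on which other matrix proteins assemble, and it spread widely at hour 0 and hour 3. It stood at 1006, 526 and 1043 CPM at hour 0 and 1027, 3006 and 1752 at hour 3. The day 1 libraries stood at 294, 302 and 342 CPM, below every library of the other 5 groups. Fn1 stood at 478, 570.1 and 830.3 CPM at day 2, 731, 569 and 1216 at day 8 and 1115, 1260.2 and 1165 at day 23. It fell at day 1 (-1.46 ± 0.30 (SE), adjusted p = 0.000403), a 2.75-fold difference, and rose from day 1 to day 2 by 1.00 (adjusted p = 0.0156). The latter call was lost without day 1 replicate 13 (adjusted p = 0.0552) or day 2 replicate 18 (adjusted p = 0.094). At day 8 the difference from hour 0 was -0.03 ± 0.29 (SE) and at day 23 0.46 ± 0.29 (SE), with no call. The hour 3 difference of 1.17 was called under TMM, although the libraries overlapped. It was 0.66 with adjusted p = 0.0543 without hour 3 replicate 5 and 0.01 with library totals.

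Fibrillin 1 (Fbn1) forms the microfibrils that carry elastin and store latent TGF-beta, and elastin (Eln) gives the fibre its recoil. Fbn1 stood at 1514, 1184 and 1246 CPM at hour 0, 2537, 3333 and 2847 at hour 3 and 499, 473 and 601 at day 1. It was 695, 743 and 1179 CPM at day 2, 1325, 1130.2 and 1426 at day 8 and 1817, 1278 and 1428 at day 23. The day 1 libraries lay below all others, the day 2 libraries lay between day 1 and hour 0, and the day 8 and day 23 libraries overlapped hour 0. Fbn1 fell by 1.33 at day 1 (SE 0.20, adjusted p = 6.56e-06). At day 2 the difference was -0.59 (adjusted p = 0.0411), a call that held in 16 of 27 alternative settings, with a difference of -0.22 under library totals. From day 1 to day 2 it rose by 0.74 (adjusted p = 0.00898), lost without day 2 replicate 18, the highest of its group (adjusted p = 0.112). Eln stood at 284, 265 and 245 CPM at hour 0 and 250.3, 222 and 277 at day 1, which overlapped (-0.08 ± 0.19 (SE), adjusted p = 0.8). It fell at day 2 to 131, 97.1 and 111 CPM, below all hour 0 and day 1 libraries (-1.23 ± 0.19 (SE), adjusted p = 2.03e-05). Eln was 127, 213 and 172 CPM at hour 3, 186, 195 and 194 at day 8 and 316, 185 and 288 at day 23. At hour 3 it was the only one of the 10 genes called lower than hour 0, by -0.63 under TMM and -1.81 under library totals. Without hour 3 replicate 4 the difference was -0.50 (adjusted p = 0.054). The lower level at day 8 (-0.46, adjusted p = 0.0492) was called in 15 of 27 alternative settings.

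The ratio of Fbn1 to Eln per kb had a median of 3.40 at hour 0 (2.99 to 3.56), 11.0 at hour 3 (10.5 to 13.4) and 1.42 at day 1 (1.33 to 1.45). At day 2 it was 5.11 (3.56 to 7.11), at day 8 4.76 (3.88 to 4.90) and at day 23 3.84 (3.31 to 4.60). Within replicates 10 to 18 the ratio was below every hour 0 value at day 1 and around or above the highest hour 0 value at day 2, since Fbn1 was low at day 1 and Eln at day 2.

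Sparc, a collagen-binding matricellular glycoprotein that assists collagen deposition, was the most abundant of the 10 genes per length at hour 0, at 369 CPM per kb. Next were Fbn1 at 108, Tnxb at 96.1, Thbs1 at 73.7 and Fn1 at 73.5 CPM per kb. Eln (32.7), Thbs2 (32.2), Postn (14.2), Coch (3.73) and Tnc (3.57) were lower. At hour 3 Thbs1 led at 13022 CPM per kb against 769.6 for Sparc, and at day 2 Tnc reached 122 CPM per kb. Sparc itself ran from 1268 to 1640.0 CPM at hour 0, 1319.7 to 1731 at day 1 and 1298 to 1688 at day 2, which overlapped, to 1466 to 1593 at day 8 and 1122 to 1672 at day 23. Its log2 difference from hour 0 was 0.16 ± 0.18 (SE) at day 1, 0.04 ± 0.18 (SE) at day 2, 0.13 ± 0.18 (SE) at day 8 and -0.04 ± 0.18 (SE) at day 23, with no call. At hour 3 it was 2635 to 3269 CPM, a difference of 1.06 under TMM that was -0.12 under library totals.

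Periostin (Postn) is a matricellular protein that binds tenascin C, fibronectin and collagen and is known from repairing tissue. It stood at 128, 115 and 129 CPM at hour 0, 153, 51.9 and 268 at day 1 and 397, 418 and 565 at day 2. It was 176, 308 and 186 CPM at hour 3, 263, 335 and 333 at day 8 and 191, 157 and 145 at day 23. The day 2 libraries lay above all others, the day 8 libraries above hour 0 and day 23, and the day 1 libraries on both sides of hour 0 because replicate 14 was 4.05-fold below the mean of the other 2. Postn rose at day 2 by 1.89 ± 0.32 (SE) (adjusted p = 5.03e-05), a 3.71-fold difference, and from day 1 to day 2 by 1.55 (adjusted p = 0.000834). The latter difference was 1.11 without replicate 14 and 2.16 without replicate 15, both called. At day 1 the difference was 0.35 ± 0.31 (SE) with no call (adjusted p = 0.465), but 0.77 with adjusted p = 0.0123 without replicate 14. Postn was 2.50-fold higher at day 8 than at hour 0 (adjusted p = 0.00221, across the sets). From day 8 to day 23 it differed by -0.92, not called (adjusted p = 0.0871), with no overlap, and it was called in 5 of 28 alternative settings. At hour 3 the difference was 0.85 under TMM and -0.32 under library totals, and 0.52 (adjusted p = 0.172) without hour 3 replicate 5. DESeq2 and limma-voom did not call it (adjusted p = 0.0914 and 0.0664).

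Coch, which encodes cochlin, a secreted protein best known from the inner ear and also from follicular dendritic cells, was with Tnc the lowest per length at hour 0. It stood at 12.1, 5.78 and 15.7 CPM at hour 0, 24.0, 7.64 and 15.4 at hour 3 and 34.0, 108 and 26.9 at day 1. It was 3.31, 2.98 and 6.57 CPM at day 2, 3.33, 4.06 and 5.74 at day 8 and 2.85, 4.28 and 7.10 at day 23. All day 1 libraries lay above all others, with replicate 14 3.55-fold above the mean of the other 2. Coch rose at day 1 by 2.32 ± 0.45 (SE) (adjusted p = 0.0002), or 1.44 (adjusted p = 0.00979) without replicate 14. It fell by 3.69 from day 1 to day 2 (adjusted p = 4.67e-06), and the difference was -2.82 without that library. The lower levels at day 2, day 8 and day 23 against hour 0 (-1.37, -1.36 and -1.28, adjusted p = 0.0487, 0.0206 and 0.0422) rest on few counts, 22 to 63 a library at day 2, 40 to 74 at day 8 and 16 to 49 at day 23, against 51 to 190 at hour 0. The day 2 call held in 16 of 27 alternative settings, the day 8 call in 24 of 27 and the day 23 call in 18 of 27. The day 2 and day 23 libraries overlapped those of hour 0. At day 2 up to 19.7% of its counts equalled the background.

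**Figure D3:**
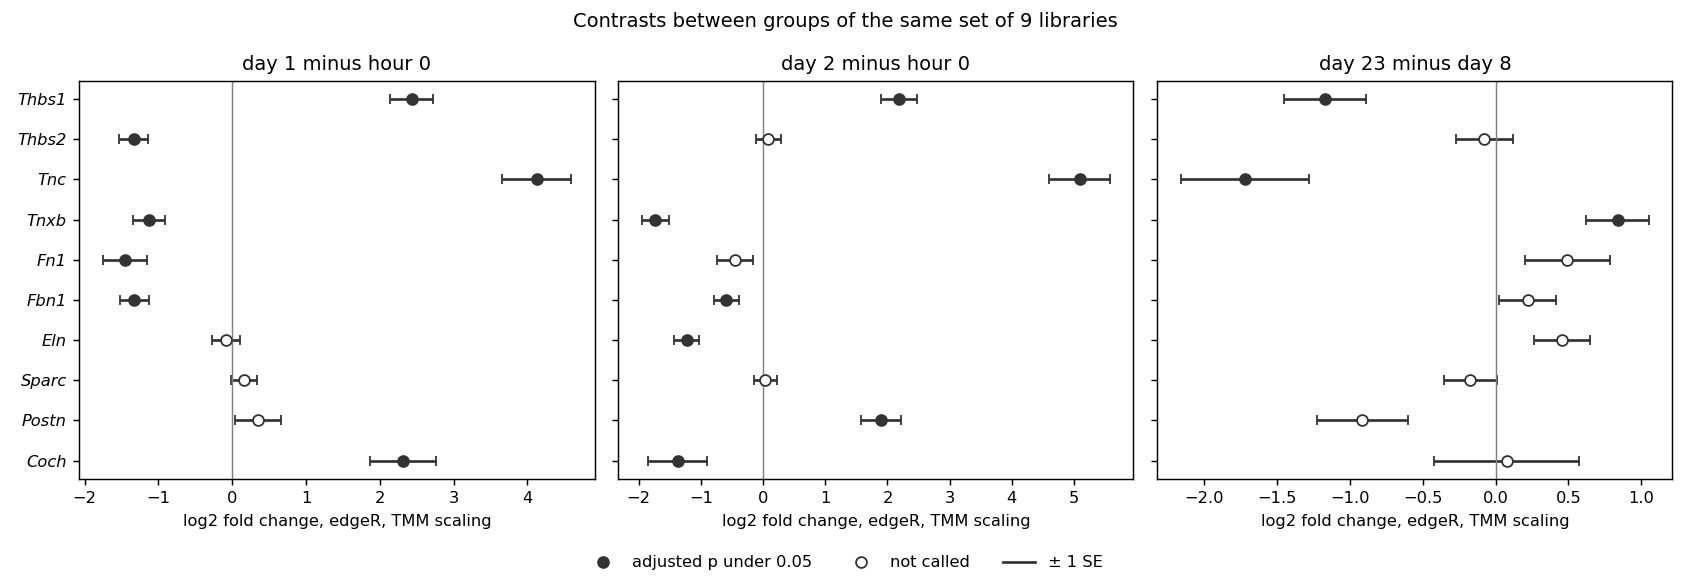
Log2 fold changes (points) with 1 SE on each side of the 10 genes for day 1 against hour 0, day 2 against hour 0 and day 23 against day 8, 3 contrasts that stay within a set of 9 libraries. Filled points have an adjusted p under 0.05 in edgeR. Tnc and Thbs1 are higher at both early days while Tnxb and Fbn1 are lower, Thbs2 and Fn1 are called lower at day 1 and not at day 2, and at day 23 Tnc and Thbs1 are below day 8.

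Over the 18 libraries the highest Pearson correlations of log2 CPM between members were 0.921 for Fn1 with Fbn1, 0.911 for Fbn1 with Thbs2 and 0.900 for Sparc with Thbs1. The lowest was -0.64 for Tnc with Eln. These values describe 18 libraries that share time groups, sets and the scaling. Among 8826 genes with a mean of at least 10 CPM, the nearest to Thbs1 were Smad7 (0.984), Mapk6 (0.982) and Lox (0.982), the last encoding the enzyme that cross-links collagen and elastin. Nearest to Tnc were Specc1 (0.946), Ddit4 (0.939) and Col12a1 (0.937), a collagen that lies on fibril surfaces. Nearest to Tnxb were Ltbp4 (0.966), Ces2g (0.959) and Sptbn1 (0.959), and nearest to Thbs2 were Dock1 (0.968), Cilp (0.955) and Parva (0.954). Fbn1 was nearest to Ptgfrn (0.968), Dip2c (0.968) and Col1a2 (0.968), a chain of type I collagen. Fn1 was nearest to Fndc1 (0.936), Fbn1 and Tgfbr2 (0.913). Sparc was nearest to Cops8 (0.951), Furin (0.947) and Slc7a1 (0.946). The nearest to Eln were Tmem159 (0.866), Cds2 (0.860) and Acp2 (0.860), those to Coch Cers2 (0.875), Gypc (0.873) and Pi4ka (0.850), and those to Postn Dhrs1 (0.806), Nt5dc2 (0.802) and Nrep (0.794).

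The receptors and partners of the 10 proteins were counted from lists chosen with earlier results of these data known. Of 26 integrins, syndecans and other matrix receptors, 5 were higher and 10 lower at day 1, where 9.67% of all genes were higher and 12.8% lower. At day 2, 7 were higher and 11 lower (8 and 6 with library totals), where 5.12% of all genes were higher and 9.63% lower. Their median log2 difference was -0.27 at day 1 and -0.40 at day 2, against -0.41 and 0.29 for all genes. With a filter of 5 CPM in 3 libraries these medians were -0.23 and -0.29, against -0.04 and 0.0048 for all genes. Whether the receptors lay above or below all genes at day 1 thus depends on the filter. Itga5, whose product is the alpha chain of the main fibronectin receptor, rose by 2.14 at day 1, and Sdc3 by 3.13. Itga8, the alpha chain of a receptor for fibronectin and nephronectin, fell by 5.18, and the collagen receptor chain Itga11 fell by 3.24. Itga7, a laminin receptor chain, was higher at day 2 by 3.47. At hour 3 Itga5 was higher by 6.39 (5.23 with library totals) and Sdc4, a co-receptor for fibronectin, by 4.88 (3.70). The receptor count at hour 3 was 14 higher and 2 lower under TMM but 3 higher and 13 lower under library totals. Under TMM, 16.9% of all genes were higher there and 43.1% lower. The receptor medians at hour 3 were 0.61 under TMM and -0.57 under library totals, against -1.41 and -2.54 for all genes. With the filter of 5 CPM they were 0.49 for the receptors and -0.23 for all genes under TMM.

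Of 15 other elastic fibre and microfibril genes, 3 were higher and 7 lower at day 1 (9.67% and 12.8% of all genes), and 2 higher and 8 lower at day 2 (5.12% and 9.63% of all genes). Their medians were -0.60 and -0.63, against -0.41 and 0.29 for all genes. Without replicate 14, 5 were higher and 7 lower at day 1, with a median of -0.32 against -0.69 for all genes. With a filter of 5 CPM in 3 libraries the day 1 medians were -0.57 and -0.04. Whether the list lay above or below all genes at day 1 thus depends on replicate 14. Ltbp2, a microfibril-associated latent TGF-beta binding protein, rose by 3.43 at day 1 and 3.12 at day 2. Its relative Ltbp4 fell on both days (-3.08 and -4.43), and Fbln5, which helps load elastin onto microfibrils, fell by 3.11 at day 1. At hour 3, 12 were higher and 1 lower under TMM (16.9% and 43.1% of all genes), and 1 higher and 4 lower under library totals. The medians of the list there were 1.10 under TMM and -0.08 under library totals, against -1.41 and -2.54 for all genes. From day 8 to day 23, 4 were higher and 1 lower (2.25% and 3.08% of all genes), with Ltbp4 at 1.24 and Fbn2, fibrillin 2, at -1.43.

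Of 20 other matricellular genes, 5 were higher and 8 lower at day 1 (9.67% and 12.8% of all genes), and the counts at day 2 were also 5 and 8 (5.12% and 9.63% of all genes). Their medians were -0.76 and -0.30, against -0.41 and 0.29 for all genes. Spp1, which encodes osteopontin, rose by 3.46 at day 1 and 4.46 at day 2. Ccn2, known as connective tissue growth factor, was higher by 5.86 at hour 3 (4.68 with library totals) and 1.30 at day 1. Spon2 fell by 5.30 at day 1 and Matn2 fell by 3.52. Smoc2 and Sparcl1, relatives of Sparc, fell at day 2, with differences of -4.09 and -3.43, when Sparc differed by 0.04. At day 8 the list had 1 gene higher (Ccn1, 0.93) and 12 lower than hour 0, and 1 higher and 15 lower with library totals, where 11.2% of all genes were higher and 32.7% lower under TMM. At day 23 it had 1 higher and 6 lower, and 0 higher and 11 lower with library totals, where 8.51% of all genes were higher and 25.4% lower under TMM. At hour 3 it had 15 higher and 3 lower under TMM (16.9% and 43.1% of all genes), and 4 higher and 5 lower under library totals. Its medians there were 1.11 under TMM and -0.08 under library totals, against -1.41 and -2.54 for all genes.

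Of 14 basement membrane glycoproteins, 11 were lower at day 1 and the other 3 were not called, where 12.8% of all genes were lower. At day 2, 1 was higher and 9 lower, where 5.12% of all genes were higher and 9.63% lower. Their medians were -1.65 and -1.55, against -0.41 and 0.29 for all genes. The laminin chains Lamb1 and Lama2 fell at day 1, with differences of -3.67 and -3.64, larger differences than those of any of the 4 member genes lower on that day. From day 1 to day 2, 8 were higher and 3 lower (9 and 1 with library totals, 12.0% and 11.2% of all genes under TMM), with Lama5 at 2.47. At hour 3, 10 were higher and 4 lower under TMM (16.9% and 43.1% of all genes). Under library totals 5 were lower and the other 9 were not called. The medians of the list at hour 3 were 0.85 under TMM and -0.33 under library totals, against -1.41 and -2.54 for all genes. Of 12 genes for TGF-beta ligands, receptors and targets, 3 were higher and 6 lower at day 1 (9.67% and 12.8% of all genes). At day 2, 4 were higher and 6 lower (4 and 3 with library totals, 5.12% and 9.63% of all genes under TMM). Their medians were -0.56 and -0.53, against -0.41 and 0.29 for all genes. Smad7, which dampens TGF-beta signalling, was higher by 3.91 at hour 3 (2.73 with library totals) and 1.35 at day 1, while Smad3 fell by 2.42 at day 1.

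Markers of the sort and of other cells moved with several of these results. All 9 fibroblast markers were detected in every group, and their summed level was 24495 to 28940 CPM at hour 0, 11069 to 15064 at day 1 and 14869 to 22762 at day 2. It was 43076 to 43951 at hour 3, 25862 to 29445 at day 8 and 22856 to 36835 at day 23. Pdpn was 60.4 ± 6.09 CPM (SD, n = 3) at hour 0 and 827 ± 100.4 at hour 3, and it stood at 338 ± 121 at day 1 and 190.3 ± 12.1 at day 2. The other fibroblast markers did not all move with it: Pdgfra had a mean of 1922 CPM at hour 0 and 182 at day 1, and Pdgfrb 413 and 440 CPM. The 9 epithelial, acinar and duct markers summed to 29534 to 67038 CPM at hour 0, 2346 to 3088 at day 1 and 342 to 1182 at day 2, beside 68912 to 111920 at hour 3, 45043 to 134830 at day 8 and 69997 to 221270 at day 23. The 9 smooth muscle and mural markers summed to 1000.2 to 1572 CPM at hour 0 and 139.5 to 151 at day 1, beside the lower Fn1, Fbn1 and Tnxb of day 1 and an Eln that was not called. They summed to 215 to 318 CPM at day 2, beside the lower Eln, and to 1810 to 2106 at hour 3, where Eln was also lower. They summed to 1023 to 1269 at day 8 and 390.1 to 847 at day 23. Within the list Myh11 went from a mean of 681 CPM at hour 0 to 28.9 at day 2, while Mcam went from 16.0 to 80.1 and Des from 23.0 to 38.6. Cspg4 made up most of the hour 3 sum, at a mean of 1732 CPM. The part of these markers in the results was not tested. The 6 platelet markers, of a cell rich in Thbs1 protein, summed to 14.1 to 16.1 CPM at hour 0 and 5.80 to 10.7 at hour 3. Of these 6, 4 were detected at hour 0 and 5 at hour 3, and only 3 passed the filter on low counts. The 2 groups lie in different sets, with backgrounds of 1.19 to 1.88 and 0.042 to 0.061 counts per kb, so these low sums cannot be compared. The part of platelets in the results was not tested. The 8 macrophage and monocyte markers summed to 17.7 to 24.8 CPM at hour 0, 48.2 to 70.1 at hour 3, at most 27.5 at day 1 and 26.8 to 37.2 at day 2. They were highest at day 8, at 136 to 166 CPM, and 52.9 to 78.4 at day 23. The 8 blood endothelial markers summed to 66.5 to 72.8 CPM at hour 0 and 141 to 172 at day 8, and the 6 lymphocyte markers to 11.1 to 21.5 and 45.3 to 68.7. These stand beside the higher Thbs1, Thbs2, Tnc and Postn of day 8, and their part in those results was not tested. Within day 1, replicate 14 had a fibroblast sum of 11069 CPM beside 14269 and 15064 in the other libraries, and a sum over 7 glial markers of 43.1 beside 25.1 and 21.1. The glial sum was 171 to 187 CPM at hour 0 and 247 to 410 at day 2. The 7 neutrophil markers summed to 5.87 to 9.29 CPM at hour 0 and 37.2 to 47.7 at hour 3. The part of glial cells and neutrophils in the results was not tested.

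The 10 genes lie at separate places in mm10 by GENCODE M21. Fn1 (ENSMUSG00000026193) spans chr1:71585520-71653200 on the minus strand, Tnc (ENSMUSG00000028364) chr4:63959785-64047015 (minus) and Sparc (ENSMUSG00000018593) chr11:55394500-55423183 (minus). Postn (ENSMUSG00000027750) spans chr3:54361109-54391037 (plus), Eln (ENSMUSG00000029675) chr5:134702593-134747323 (minus) and Fbn1 (ENSMUSG00000027204) chr2:125300594-125507993 (minus). Thbs1 (ENSMUSG00000040152) spans chr2:118111876-118127133 (plus) and Thbs2 (ENSMUSG00000023885) chr17:14665500-14694235 (minus). Tnxb (ENSMUSG00000033327) spans chr17:34670535-34719815 (plus) and Coch (ENSMUSG00000020953) chr12:51593341-51605771 (plus). Fn1, Tnc, Eln, Fbn1, Thbs1 and Tnxb share exon bases with a gene on the opposite strand, whose counts summed over the 18 libraries were at most 0.205% of theirs.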

How the data were processed

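The deposited files hold raw counts per Ensembl gene ID for each of 18 libraries. Per the submitters' processing notes the authors used FastQC, STAR, Subread and DESeq2 with the mm10 build, and the versions, annotation and strand setting are not given in the sources used here. Of 55401 IDs, 55141 were matched to GENCODE M21, and the other 260 held 0.0241% of the counts. Groups were taken from the sample labels. edgeR 4.0.16 in R 4.3.3 was run on all 18 libraries with filterByExpr (minimum count 10, total 15), TMM scaling and quasi-likelihood tests, with Benjamini-Hochberg adjustment over 27525 genes and a threshold of 0.05. CPM per kb used union exon lengths. Alternatives were DESeq2 1.42.0, limma-voom 3.58.1, other scalings and filters, subtracted background, fewer groups and leaving out each library. Depth was 4398234 to 15234431 counts. The p-values rest on the spread between libraries within groups, estimated over all 6 groups together, with 3 libraries a group. All 10 members were named in each comparison. From each related list the text took genes from up to 2 rises and 2 falls per contrast that passed the test, reached 10 CPM in the higher group and did not overlap, and for each member its 3 nearest genes by Pearson correlation, leaving out predicted gene models. One gene that met the rule for related lists is not reported here by name, and it is included in its list's counts. The members and lists were chosen with earlier results of these data known.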

Additional observations from a re-analysis of the deposited data

Results flagged for a closer look

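Coch was called higher at day 1 and lower at day 2 against the same hour 0 libraries. Its log2 difference from hour 0 was 2.32 at day 1 and -1.37 at day 2, and the difference between the days was -3.69 (adjusted p = 4.67e-06, edgeR). The day 2 call (adjusted p = 0.0487) was lost in DESeq2 (adjusted p = 0.0979), limma-voom (adjusted p = 0.215) and with library totals (-0.99, adjusted p = 0.164), and the day 2 libraries overlapped those of hour 0. The difference between the days held in 27 of 27 alternative settings. Day 1 replicate 14 had the highest level of Coch, and without it the difference between the days was -2.82 (adjusted p = 1.79e-05).

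Tnxb was called higher than hour 0 at hour 3 (0.86) and lower at day 8 (-0.82), and the difference between day 8 and hour 3, which lie in the same set of libraries, was -1.68 (adjusted p = 3.85e-07, edgeR). With library totals the hour 3 difference was -0.31 and the difference between day 8 and hour 3 was -0.92, so the opposite directions rest on the scaling while the lower level at day 8 than at hour 3 does not.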

How the results depend on the processing

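With library totals in place of TMM, 4 genes changed direction at hour 3 against hour 0: Sparc (-0.12), Postn (-0.32), Fbn1 (-0.031) and Tnxb (-0.31). The number of the 10 genes called there went from 9 to 4, from 8 to 5 for day 8 against hour 3 and from 8 to 3 for day 23 against hour 3. At day 23 against hour 0 it went from 2 to 1 with a filter of 5 CPM in 3 libraries, subtracted background, day 2 left out, only the 2 groups compared, or limma-voom, and from 3 to 1 for day 23 against day 8 with limma-voom. Leaving out each library in turn gave 7 to 9 calls at hour 3, 7 to 8 at day 1, 5 to 7 at day 2, 5 to 7 at day 8 and 1 to 2 at day 23 against hour 0. It gave 5 to 7 from day 1 to day 2, 7 to 8 for day 8 and 7 to 9 for day 23 against hour 3, and 1 to 4 for day 23 against day 8. All 10 stayed called over the 6 groups.

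Over all genes, the filter of 5 CPM gave 9329 calls at hour 3 (16503 before), 4851 at day 8 (12076), 3312 at day 23 (9348) and 12685 over the 6 groups (23092), where it also tests fewer genes. limma-voom gave 6427 at day 2 (4061) and 13496 from day 1 to day 2 (6388). Without day 2 the counts were 6783 at day 8, 5123 at day 23 and 15324 over the 6 groups. With only the 2 groups they were 7182 at day 8, 1997 at day 23 and 708 for day 23 against day 8 (1465), where DESeq2 gave 2267. Subtracted background gave 5156 at day 23. Leaving out a library gave as few as 7204 at day 8, 4061 at day 23 without replicate 8, 3490 from day 1 to day 2 and 593 for day 23 against day 8. Apart from the changes of scaling and filter named, the cause was not tested. For the single genes in the settings that keep all libraries of the groups compared, 781 values kept their direction and side of the threshold, 49 lost a call with the direction kept, 16 gained one, and the 4 hour 3 values that changed direction lost theirs too. When a library was left out, 1557 kept both, 53 lost and 10 gained a call. No paired analysis was possible because the replicate numbers are not shared between groups. Depth limits Coch most, followed by Tnc at hour 0 and day 23.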
